A study of Mus musculus with 6 samples.

Results

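The Fc receptor genes measured here encode proteins that bind the constant part of antibodies on the surface of blood cells, or the chains through which such receptors signal. Every probe set of the value table whose only gene symbol was Fcer1a, Ms4a2, Fcer1g, Fcgr1, Fcgr2b or Fcgr3 was taken, which gave 10 probe sets of 6 genes out of 28821 probe sets, or out of 13146 genes with a probe set of their own. Expression had been measured on Affymetrix arrays in Lin-/Sca1-/cKit+ cells, the sorted fraction of mouse blood-forming tissue that lacks lineage markers and Sca1, carries the receptor Kit and holds committed myeloid progenitors. The 3 leukemia samples were spleen cells of MF1 mice aged 12 to 16 weeks that had been lethally irradiated and transplanted with hematopoietic progenitor cells transduced with AE9a (AML1-ETO9a), a truncated form of the AML1-ETO fusion protein. The 3 wild-type samples were bone marrow cells of MF1 mice of the same age, with no transplant named. Leukemia, tissue of origin, irradiation and transplantation therefore cannot be told apart, and cells that the irradiated hosts still had may be among the leukemia cells. Each leukemia sample is labelled with 1 numbered mouse, the wild-type samples name no single animal, and nothing states separate animals in each group, so the p-values describe the spread of these arrays, which may be technical. According to its title, the series profiles a cell population enriched for those that initiate the leukemia.

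The high-affinity IgE receptor of mast cells and basophils is built from an alpha chain that binds IgE (Fcer1a), a beta chain that amplifies the signal (Ms4a2) and a pair of gamma chains (Fcer1g). The gamma chain carries an immunoreceptor tyrosine-based activation motif (ITAM), which recruits the kinase Syk when phosphorylated, and in mice it is needed to bring the IgE receptor and the activating IgG receptors encoded by Fcgr1 and Fcgr3 to the cell surface. Fcgr2b encodes an IgG receptor with an inhibitory motif (ITIM) that recruits the phosphatase encoded by Inpp5d and damps such signals. Committed myeloid progenitors of mouse marrow are commonly divided by an antibody that binds the products of Fcgr2b and Fcgr3 alike.

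The sequences just upstream of the 3 IgE receptor genes are shown because these genes, whose products form 1 complex, moved in opposite directions. They are taken from RefSeq (GRCm38.p6), run 5′ to 3′ on the minus strand on which all 3 genes lie, and stop before the outermost annotated transcript start. Capitals mark GATAA, the core recognised by GATA factors, or AGGAA, a core of sites for PU.1 and other Ets factors, searched on both strands (as TTATC and TTCCT on the opposite one).
Fcer1a (chr1:173227233-173227479): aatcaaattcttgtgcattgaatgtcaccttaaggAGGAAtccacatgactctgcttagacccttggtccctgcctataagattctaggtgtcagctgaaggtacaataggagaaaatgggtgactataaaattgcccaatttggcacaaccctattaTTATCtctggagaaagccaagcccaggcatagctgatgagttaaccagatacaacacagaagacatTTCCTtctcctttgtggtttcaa
Ms4a2 (chr19:11623791-11623969): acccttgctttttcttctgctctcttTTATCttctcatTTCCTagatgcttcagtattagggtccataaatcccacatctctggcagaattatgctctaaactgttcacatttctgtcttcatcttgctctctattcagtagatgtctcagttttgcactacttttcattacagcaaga
Fcer1g (chr1:171234350-171234599): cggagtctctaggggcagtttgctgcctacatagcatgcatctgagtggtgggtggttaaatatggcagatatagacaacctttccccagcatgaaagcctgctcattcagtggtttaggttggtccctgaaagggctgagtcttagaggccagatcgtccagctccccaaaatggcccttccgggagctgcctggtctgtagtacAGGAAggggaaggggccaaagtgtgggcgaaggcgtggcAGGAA
GATAA was found 1 time upstream of Fcer1a, 1 time upstream of Ms4a2 and 0 times upstream of Fcer1g. AGGAA was found 2 times, 1 time and 2 times in the same order of genes, and matches of the 2 motifs overlapped 0 times. Of 32851 RefSeq promoter windows cut to the same stretch, 22.4% held GATAA and 59.9% AGGAA at the length used for Fcer1a, 17.9% and 49.2% at that for Ms4a2, and 22.6% and 60.3% at that for Fcer1g. The matches describe letters only, and no binding was measured.

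Some facts of the arrays bear on every value. Pearson's r over all probe sets other than controls was 0.969 to 0.978 within leukemia, 0.992 to 0.994 within wild-type and 0.902 to 0.925 between the groups, and the median SD of the tested probe sets was 0.228 log2 in leukemia against 0.122 in wild-type. Leukemia replicate 1 lay away from the other leukemia libraries, with an array weight of 0.193 against 0.874 and 1.21, and shared its fluidics run with the wild-type arrays, whereas leukemia replicates 2 and 3 formed the other run. A 5′ probe set for 18S ribosomal RNA lay at 11.14 to 12.35 log2 in leukemia against 7.77 to 9.41 in wild-type, and the 3′ minus 5′ difference of Gapdh at 0.01 to 0.31 log2 in leukemia against -0.14 to -0.06 in wild-type, both highest on leukemia replicate 1. The part of these measures in the results was not tested. The number of arrays, 6, limits the precision of all values.

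The subunits of the IgE receptor parted. Fcer1a and both probe sets of Ms4a2 rose in leukemia, Fcer1g fell to about the level of dim probe sets, the inhibitory Fcgr2b fell with all 4 of its probe sets, Fcgr3 was spread widely over the leukemia arrays, and Fcgr1 was dim on every array. Of the 10 probe sets, 9 passed the filter on dim values and were tested with limma over 18098 probe sets. Of these 9, 8 changed at a limma adjusted p under 0.05, of which 3 rose and 5 fell. Over all probe sets tested 38.4% changed, 17.5% upward and 20.9% downward. All leukemia arrays lay on 1 side of all wild-type arrays for 8 of the 9, against 56.6% of all tested. By genes, each represented by its brightest probe set, 4 of the 5 tested changed, 2 higher and 2 lower, where 42.1% of 9715 genes changed (16.9% higher, 25.2% lower). In these bulk samples fewer cells of a type and less RNA per cell cannot be told apart.

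**Figure D1:**
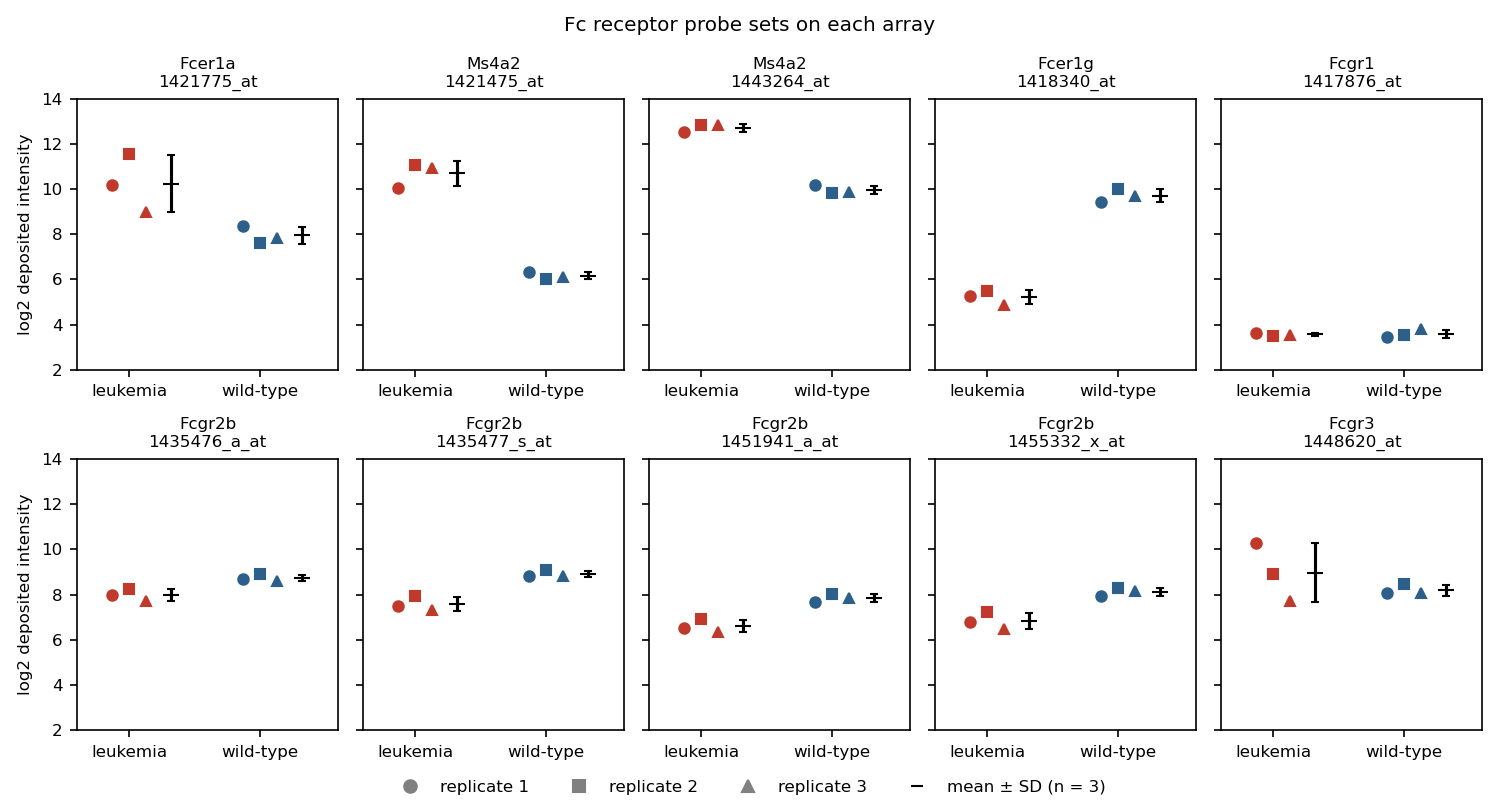
log2 deposited intensity (vertical axis) of the 10 Fc receptor probe sets on each of the 6 arrays, with 3 leukemia arrays at left and 3 wild-type arrays at right in each panel, symbols for replicates and the mean ± SD beside them. The leukemia points lie above all wild-type points for Fcer1a and Ms4a2, below them for Fcer1g and Fcgr2b, and on both sides of them for Fcgr3. Levels of different probe sets are not comparable.

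Fcer1a, the IgE-binding alpha chain, was at 10.16, 11.56 and 9.01 log2 in leukemia replicates 1, 2 and 3, against 8.37, 7.64 and 7.86 log2 in the wild-type replicates. Every leukemia array lay above every wild-type array, with replicate 2 highest and replicate 3 nearest to wild-type. The rise was 2.29 ± 0.59 log2 (SE, n = 3 each; limma adjusted p = 0.0210), or 4.89-fold. Leaving out leukemia replicate 1, 2 or 3 gave 2.33, 1.63 or 2.91. The call was lost without wild-type replicate 2 (limma adjusted p = 0.0799), without wild-type replicate 3 (limma adjusted p = 0.0711) and in the fit blocked by fluidics run (2.21, limma adjusted p = 0.0794), where the change is that of leukemia replicate 1 alone against wild-type.

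Ms4a2, the beta chain, rose with both of its probe sets. Probe set 1421475_at was at 10.07, 11.08 and 10.96 log2 in leukemia, against 6.35, 6.04 and 6.12 log2 in wild-type. The other, 1443264_at, was at 12.52, 12.84 and 12.82 log2 in leukemia, against 10.18, 9.81 and 9.89 log2 in wild-type. Groups were far apart for both. The leukemia replicates lay close together for 1443264_at (SD 0.18) and less so for 1421475_at (SD 0.55). The rise was 4.53 ± 0.27 log2 (SE; limma adjusted p = 4.09e-05), or 23.2-fold, for 1421475_at and 2.77 ± 0.13 log2 (SE; limma adjusted p = 1.29e-05), or 6.82-fold, for 1443264_at. The probe sets therefore gave 1 direction but unequal sizes, the brighter one lying at the 99.2 to 99.5 percentiles of the leukemia arrays and the 90.4 to 92.7 percentiles of the wild-type arrays. In the fit blocked by fluidics run the changes were 3.91 and 2.56, and without leukemia replicate 1 they were 4.85 and 2.87.

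Fcer1g, the gamma chain shared by the activating Fc receptors, moved the other way. It was at 5.26, 5.49 and 4.88 log2 in leukemia, against 9.42, 10.02 and 9.70 log2 in wild-type. These leukemia values stood at the 38.2, 40.8 and 33.1 percentiles of their arrays, against the 87.1, 91.8 and 89.2 percentiles for the wild-type values, so the gene was among the dim probe sets of the leukemia arrays and among the bright ones of the wild-type arrays. The fall was -4.50 ± 0.22 log2 (SE; limma adjusted p = 1.88e-05), or 22.6-fold, and 0.757% of tested probe sets had a change as low or lower. With 16 added to each value before the log, which bears on sizes near the background, the change was -4.00. It was -4.52 without leukemia replicate 1 and -4.45 in the fit blocked by run.

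Set against each other within each array, the changes of alpha and gamma chain lay far apart. The change of Fcer1a from its wild-type mean exceeded that of Fcer1g by 6.66, 7.82 and 5.89 log2 on leukemia arrays 1, 2 and 3, against 0.70, -0.62 and -0.08 on the wild-type arrays. For Ms4a2 and Fcer1g, each by its brightest probe set, the difference of changes was 7.01, 7.10 and 7.70 log2 in leukemia, against 0.51, -0.46 and -0.05 in wild-type. Fcer1a minus Ms4a2 depended on the Ms4a2 probe set. With the brighter 1443264_at it was -0.35, 0.72 and -1.81 log2 in leukemia, against 0.19, -0.17 and -0.03 in wild-type, with a leukemia mean of -0.48 that was 0.18 without leukemia replicate 3. With 1421475_at, an alternative chosen after seeing the data, it was -1.69, -1.30 (-1.305 before rounding) and -3.74 log2 in leukemia, against 0.23, -0.18 and -0.05 in wild-type. Its leukemia mean was then -2.25, and -1.50 without leukemia replicate 3, so Ms4a2 rose more than Fcer1a on each leukemia array by that probe set. These within-array differences are descriptions and were not tested.

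**Figure D2:**
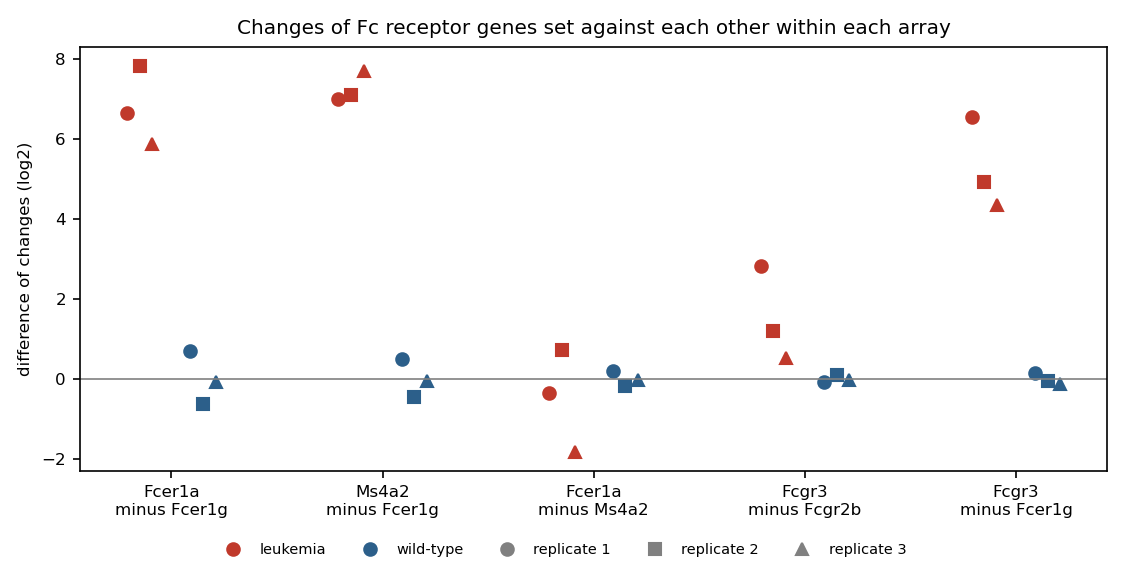
Difference of changes (log2, vertical axis) between pairs of Fc receptor genes, each change being an array's value minus the wild-type mean, with 3 leukemia arrays (red, left of each pair) and 3 wild-type arrays (blue, right), and symbols for replicates. Each gene is shown by its brightest probe set. Fcer1a and Ms4a2 lie 5.89 to 7.82 above Fcer1g on the leukemia arrays, whereas the wild-type arrays stay between -0.62 and 0.70.

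Fcgr2b, the inhibitory IgG receptor, fell with each of its probe sets. The brightest, 1435476_a_at, was at 7.9995, 8.25 and 7.73 log2 in leukemia, against 8.68, 8.89 and 8.62 log2 in wild-type. The groups did not overlap, with leukemia replicate 2 nearest to wild-type. The fall was -0.74 ± 0.17 log2 (SE; limma adjusted p = 0.0135), or 1.67-fold, and the call was lost without wild-type replicate 2 (-0.66, limma adjusted p = 0.0611). The other probe sets fell more. 1435477_s_at was at 7.48, 7.93 and 7.31 log2 in leukemia, against 8.84, 9.07 and 8.81 log2 in wild-type, a change of -1.33 ± 0.19 (SE; limma adjusted p = 0.00185). For 1451941_a_at and 1455332_x_at the changes were -1.25 and -1.29 (limma adjusted p = 0.00259 and 0.00369), and all 4 were highest in leukemia on replicate 2. Of these probe sets 3 were designed from 1 sequence record, and all 4 carry endings that mark probes shared between transcripts or genes, so they are not independent measurements and may read related transcripts. Blocked by fluidics run the 4 changes ran from -1.42 to -0.73, and without leukemia replicate 1 from -1.29 to -0.74.

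Fcgr3, the low-affinity activating IgG receptor, varied widely among the leukemia arrays. It was at 10.29, 8.91 and 7.70 log2 in leukemia replicates 1, 2 and 3, against 8.06, 8.46 and 8.05 log2 in wild-type. Leukemia replicates 1 and 2 lay above and replicate 3 below all wild-type arrays, so the groups overlapped. The SD was 1.30 in leukemia and 0.23 in wild-type, and the mean difference of 0.78 ± 0.58 log2 (SE) did not pass (limma adjusted p = 0.325). It passed without leukemia replicate 3 (1.41, limma adjusted p = 0.0370) and in the fit blocked by fluidics run (2.10, limma adjusted p = 0.00933), where only leukemia replicate 1 is compared with wild-type, and was 0.12 without leukemia replicate 1. For the inhibitory receptor Fcgr2b the brightest probe set, 1435476_a_at, was used, which fell least of its probe sets. Relative to it, the change of Fcgr3 was larger by 2.84, 1.20 and 0.52 log2 on leukemia arrays 1, 2 and 3, against -0.08, 0.10 and -0.02 on the wild-type arrays. The mean difference of 1.52 was 0.86 without leukemia replicate 1. The change of Fcgr3 exceeded that of Fcer1g, the chain with which the Fcgr3 product pairs, by 6.55, 4.94 and 4.34 log2 in leukemia, against 0.16, -0.04 and -0.12 in wild-type.

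Fcgr1, the high-affinity IgG receptor of monocytes and macrophages, was at 3.65, 3.50 and 3.54 log2 in leukemia, against 3.45, 3.53 and 3.79 log2 in wild-type. It stood at the 13.39 to 14.96 percentiles of the leukemia arrays and the 12.03 to 17.26 percentiles of the wild-type arrays, did not pass the filter on dim probe sets and was not tested. No difference was detectable at this signal.

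**Figure D3:**
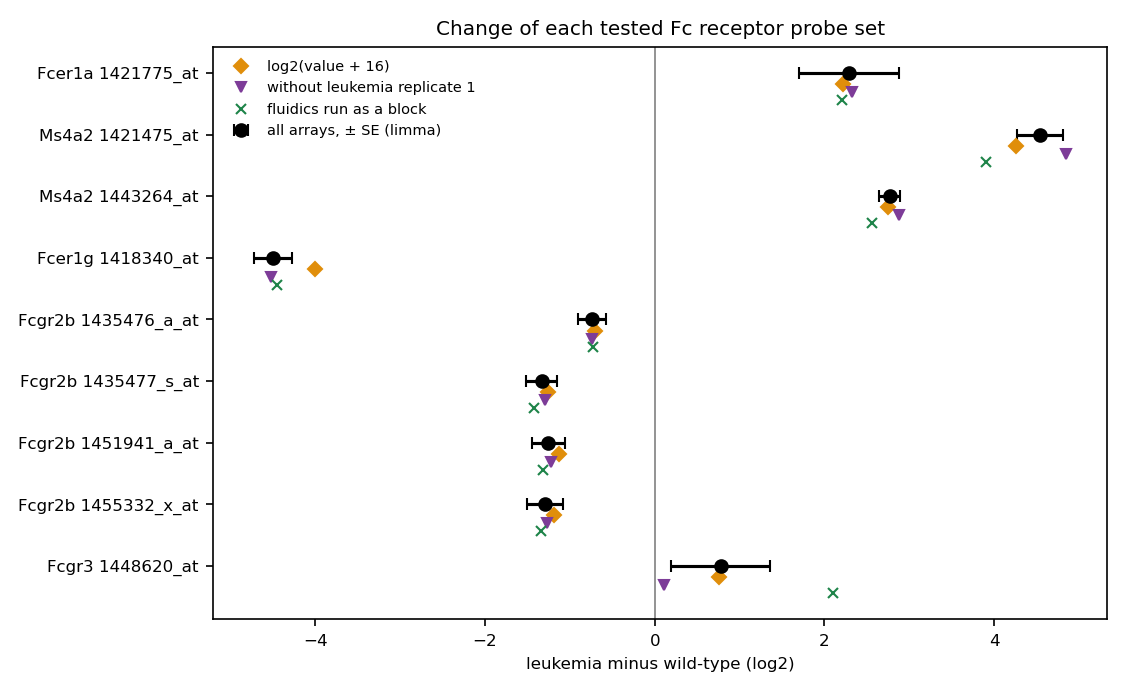
Change of each tested Fc receptor probe set, in log2 units with positive values for higher in leukemia (horizontal axis), with black points and bars for the estimate ± SE from all 6 arrays and coloured symbols for 16 added before the log, for leaving out leukemia replicate 1 and for the fluidics run as a block. All 4 estimates keep 1 direction for each probe set, and those of Fcgr3 range from 0.12 to 2.10.

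Among 6 other Fc and Fc-like receptor genes with a named probe set, 2 were bright enough to test. Fcgrt, the neonatal Fc receptor that protects IgG from breakdown, was at 4.67 to 4.96 log2 in leukemia against 6.04 to 6.36 log2 in wild-type and fell by 1.41 (limma adjusted p = 8.26e-04). It lay below the 40th percentile on every leukemia array, so it passed the filter through wild-type alone and had to be lower. Fcgr4, which RefSeq places between Fcgr2b and Fcgr3 on chromosome 1 and which encodes a further activating IgG receptor, was dim throughout, at 3.69 to 4.05 log2 in leukemia against 4.32 to 4.48 log2 in wild-type.

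Genes for other ITAM adaptors and for receptors that pair with them were mostly lower. Of 8 tested 1 rose and 5 fell, with a median change of -1.46 log2 against -0.09 over all genes tested, of which 42.1% changed. Here and in the lists below, genes that passed the filter through 1 group alone had to be higher in that group. In this list it holds for Trem3 and Cd300lb (wild-type) and for Cd247 (leukemia). Without the filter 1 rose and 7 fell among 12, with a median of -1.01. With the mean of each gene's probe sets 0 rose and 5 fell among 7. Tyrobp, which encodes the ITAM adaptor DAP12, was at 7.37, 8.60 and 6.21 log2 in leukemia, against 10.29, 10.99 and 10.75 log2 in wild-type (fell by 3.28, limma adjusted p = 0.00357). Trem3, a receptor that pairs with DAP12, fell by 4.06. Cd247, the zeta chain of the T cell receptor and a relative of the Fc receptor gamma chain, was at 5.44 to 5.74 log2 in leukemia against 3.92 to 4.56 log2 in wild-type and rose by 1.36 (limma adjusted p = 0.00227), or by 0.88 with 16 added before the log. The median was -0.80 over the 7 genes left with probe sets free of shared endings.

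The signalling genes downstream of Fc receptors split in both directions. Of 21 tested kinases, adaptors and effectors 6 rose and 10 fell, where 42.1% of all genes changed (16.9% higher, 25.2% lower). Their median was -0.36 log2, which turned to 0.08 with the mean of each gene's probe sets and was -0.08 over 25 genes without the filter on dim values. Syk, the kinase recruited by the ITAM, was at 6.26, 8.72 and 7.31 log2 in leukemia, against 9.81, 10.23 and 9.91 log2 in wild-type, and fell by 2.55 (limma adjusted p = 0.0105). The adaptor Lat2 fell by 2.40, the phospholipase Plcg2 by 2.37 and the exchange factor Vav3 by 3.23. Vav3 lay below the 40th percentile on every leukemia array, so it passed the filter through wild-type alone. The adaptors Lcp2 (SLP-76), Gab2 and Lat were among those that rose, by 2.27, 2.13 and 1.35. Lcp2 was at 10.93, 11.63 and 11.38 log2 in leukemia, against 8.76, 9.36 and 8.99 log2 in wild-type, with no overlap (limma adjusted p = 2.77e-04). The protein kinase C gene Prkcb rose by 1.501 (limma adjusted p = 0.0412), a call lost under 8 of the alternatives tried, among them each wild-type replicate left out and the fluidics run as a block (0.48, limma adjusted p = 0.354).

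Of 17 tested genes for inhibitors of such signalling 2 rose and 5 fell, a share near that over all genes (42.1%, 16.9% higher and 25.2% lower). Their median was 0.01 log2 and ran from -0.15 to 0.22 over the alternatives. Milr1, an inhibitory receptor of mast cells, was at 3.03 to 3.58 log2 in leukemia against 6.30 to 6.97 log2 in wild-type and fell by 3.31 (limma adjusted p = 8.20e-05). With 16 added before the log its change was -2.13. The inhibitory receptor Cd300a fell by 3.09, and the adaptor Dok3 fell by 1.31. Milr1 and Cd300a lay below the 40th percentile on every leukemia array, so they passed the filter through wild-type alone. Csk, which holds Src family kinases in check, fell by 1.16. Cd200r1, an inhibitory receptor of myeloid cells, rose by 2.76 and the adaptor Dok2 by 0.99. Cd200r1 lay below the 40th percentile on every wild-type array, so it passed the filter through leukemia alone and had to be higher. The fall of Dok3 did not pass with the fluidics run as a block (-0.93, limma adjusted p = 0.0684). Inpp5d, the phosphatase that acts through the ITIM of Fcgr2b and was singled out after its values were seen, differed by -0.50 (limma adjusted p = 0.131) and did not pass.

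**Figure D4:**
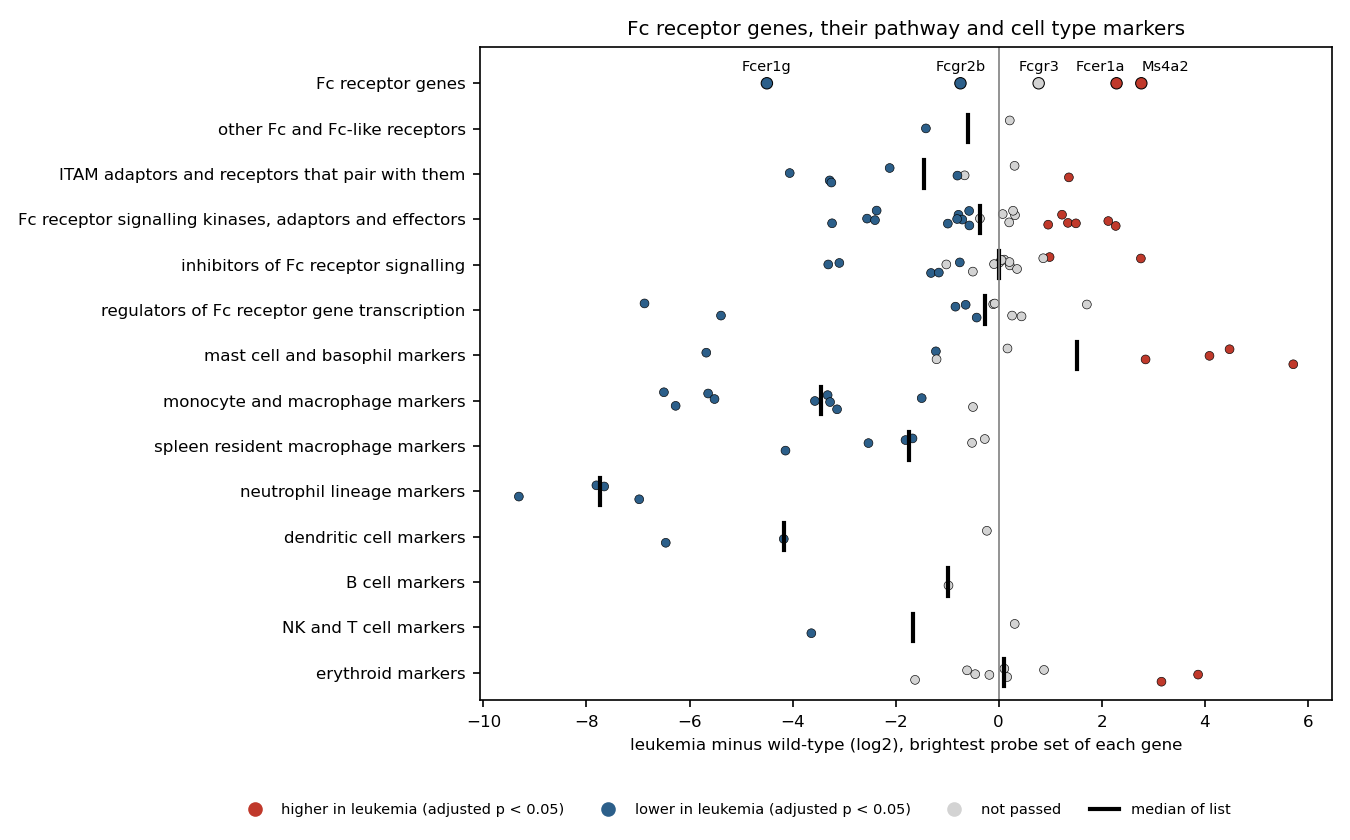
Change of each tested gene, in log2 units with positive values for higher in leukemia (horizontal axis), for the Fc receptor genes (top row, named) and for the pathway and cell type lists, with red and blue points for genes that rose and fell at an adjusted p under 0.05, grey points for the rest and a black bar for each list's median. The monocyte list has its median at -3.44, the mast cell and basophil list at 1.51 and the inhibitor list at 0.01.

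Transcription factors known to act on Fc receptor genes gave 0 rises and 5 falls among 10 tested, with a median of -0.27 log2, against 42.1% called over all genes. The median was -0.63 with the mean of each gene's probe sets (1 rise, 5 falls among 9) and -0.64 where only probe sets without shared endings were used (4 falls among 7), and 1 gene rose with array weights or without leukemia replicate 1. Irf8 and Cebpa, which drive monocyte and granulocyte genes, fell by 6.87 and 5.39, to dim values on every leukemia array. Both lay below the 40th percentile there, so they passed the filter through wild-type alone and had to be lower. With 16 added before the log their changes were -5.83 and -4.62. The count of falls was 2 without wild-type replicate 3 or without leukemia replicate 2. It was 3 without leukemia replicate 3, without wild-type replicate 1 or 2, with the replicate number as a block, or with the arrays centred on their medians. The GATA factors, which act on Fcer1a and Ms4a2, were singled out after their values were seen. Gata1 differed by 0.45 (limma adjusted p = 0.108) and Gata2 by -0.11 (limma adjusted p = 0.776), and neither passed. Mitf, a regulator of mast cells singled out in the same way, was at 5.85, 9.73 and 8.11 log2 in leukemia, against 6.07, 6.14 and 6.33 log2 in wild-type, and its difference of 1.71 did not pass (limma adjusted p = 0.151).

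Of 8 tested mast cell and basophil markers 4 rose and 2 fell, where 42.1% of all genes changed (16.9% higher, 25.2% lower). Their median of 1.51 log2 was -0.52 over the 6 genes left with probe sets free of shared endings (2 rises, 2 falls). It was 0.56 over 12 genes without the filter on dim values (5 rises, 2 falls). Their summed intensity was 6722 to 15553 in leukemia against 3789 to 4035 in wild-type. Here and below, such sums follow the brightest probe sets and do not measure a list as a whole. Cd200r3, an activating receptor that mast cells and basophils carry, rose by 5.72 and Il4 by 4.48. Both lay below the 40th percentile on every wild-type array, so they passed the filter through leukemia alone and had to be higher. With 16 added before the log they rose by 4.50 (4.495 before rounding) and 3.47. Mcpt8, a basophil protease, fell by 5.67 and Il3ra, a chain of the interleukin-3 receptor, by 1.22. Tpsb2, Mcpt8 and Hpgds lay below the 40th percentile on every leukemia array. Of these only Mcpt8 was tested, so it passed the filter through wild-type alone and had to be lower. Of 10 tested monocyte and macrophage markers 9 fell and 0 rose, with a median of -3.44 log2. Their summed intensity was 352 to 474 in leukemia against 4846 to 8110 in wild-type. Among them Ly86 fell by 6.50 and Csf1r, the receptor of macrophage colony-stimulating factor, by 6.27. However, 12 of 13 named monocyte markers lay below the 40th percentile on every leukemia array. Those of them that were tested passed the filter through wild-type alone and had to be lower, which covers all 9 falls. Without the filter 12 of 13 fell and 0 rose, with a median of -3.27. The part of either cell type in the changes of Fc receptor genes was not tested.

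Marker lists for other cells that the sorted fraction could hold were mostly lower or dim in leukemia. Genes that passed the filter through the wild-type arrays alone had to be lower, so counts over genes tested partly follow from the filter. The neutrophil lineage list, with Mpo and Ctsg, had 4 falls and 0 rises among 4 tested genes and a summed intensity of 174 to 279 in leukemia against 25570 to 32173 in wild-type, and without the filter 6 of 9 fell, with a median of -3.46 in place of -7.73. The list of resident spleen macrophages, with Slc40a1 and Cd163, had 4 falls among 6 (5 among 9 without the filter), and its sum was 200.2 to 229 in leukemia against 762 to 935 in wild-type. Dendritic cell genes, H2-Aa and H2-Ab1 among them, gave 2 falls among 3 (4 falls and 1 rise among 6 without the filter), with sums of 391.7 to 686.3 in leukemia against 1778 to 2018 in wild-type. The NK and T cell list gave 1 fall, that of Nkg7, among 2 tested (2 among 5 without the filter), with sums of 323 to 349 in leukemia against 2278 to 2875 in wild-type, and the single B cell gene tested did not pass (sums of 123 to 287 in leukemia against 268 to 369 in wild-type). Erythroid markers gave 2 rises, Alas2 and Slc4a1, among 9, with sums of 6917 to 12294 in leukemia against 7614 to 12159 in wild-type. Alas2 and Slc4a1 lay below the 40th percentile on every wild-type array, so they passed the filter through leukemia alone and had to be higher. Of the sort markers, Kit, the receptor used to select the cells, was bright in both groups at 9.34 to 9.80 log2 in leukemia against 10.35 to 10.42 log2 in wild-type, and its fall of 0.76 was at -0.02 with the mean of its probe sets (limma adjusted p = 0.945). The lineage markers Itgam and Cd8a lay below the 40th percentile on every array. Ptprc, of whose product B220 is a form, fell by 7.64 with its brightest probe set, which carries a shared ending. With the mean of its probe sets the change was smaller, at -3.91 (limma adjusted p = 8.27e-06). Where only probe sets without shared endings were used, neither Kit nor Ptprc was tested.

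The genes whose profile over the 6 arrays was most like that of each Fc receptor gene were found among all 9715 genes by the root mean square difference of values centred on the wild-type mean. Each gene was taken by its brightest probe set, and the difference was not scaled, so it depends on the size of the change. The neighbours of Ms4a2 and Fcgr2b therefore hold for 1443264_at and 1435476_a_at, whereas the other probe sets of these genes changed more. For Fcer1a they were Car5b (0.350 log2), C3ar1, the receptor for complement fragment C3a (0.384), and Ptger3, a prostaglandin E receptor (0.434). Ms4a2 was most like Spin4 (0.114), Tbc1d24 (0.125) and Mgarp (0.166). Nearest to Fcer1g were Mdfic (0.137), Cpq (0.144) and the inflammatory caspase gene Casp1 (0.169). For Fcgr2b the list was Iqce (0.054), Slc25a23 (0.0906) and Kit (0.0932). The likeness of Kit holds for its brightest probe set, as its change was -0.02 with the mean of its probe sets. The neighbours of Fcgr3 were Prkg1 (0.247), Ddit4 (0.324) and Ager (0.331), each of them, like Fcgr3, highest on leukemia replicate 1 and lowest in leukemia on replicate 3. Likeness over 6 arrays is a description and says nothing of shared function.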

How the data were processed

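Affymetrix Mouse430_2 arrays had been hybridised with RNA of 3 leukemia and 3 wild-type samples, 200 ng of total RNA each per the labels. Groups and replicate numbers come from the sample titles. The deposited intensity values are on a linear scale (3.31 to 18869), and RMA was used per the submitters' processing notes, its version and steps not being given in the sources used here. The median deposited intensity per array was 71.6 to 79.9. All 6 value columns were mapped (0 not mapped), and log2 was taken with no pseudocount. Array run records, per the file headers, gave 2 fluidics runs, told apart by the hybridization entry of their fluidics section, and 1 chip lot.

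Of 28821 probe sets, 23750 had 1 gene symbol, 677 several and 4355 none in the platform annotation, and 39 were controls. RefSeq (GRCm38.p6) matched 23674 and changed 0 symbols. Probe sets that reached the 40th percentile of an array on 3 or more arrays were tested with limma 3.58.1 in R 4.3.3 (two-sided, with an intensity trend and 4 residual degrees of freedom), adjusted by Benjamini-Hochberg over all 18098, threshold 0.05. Genes of the 14 lists were tested likewise over 9715 genes, each by its brightest probe set, and 141 of 185 list genes had a named probe set. Lists are given by counts and medians, with no set test. Named were all Fc receptor probe sets, up to 2 genes per direction of each list (4 for the signalling and inhibitor lists) with the largest changes among calls with no overlap of the groups, and the 3 most similar genes each. Also named were genes said to be singled out, to be dim or to pass the filter through 1 group alone. The members, lists and motifs were chosen with earlier results of these data known. Alternatives covered the filter, centring, quantile normalization, log2(value + 16), the trend, array weights, the replicate number and fluidics run as blocks, the probe set rule and leaving out each array.

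In simulated data of 18098 probe sets for leukemia against wild-type, 100 were changed, with the same spread in both groups. Of these, 43% were recovered for changes of 1 log2 and 84% for changes of 2 log2, with 7 false calls each. In the real data 38.4% of tested probe sets were called and the groups differed in spread, so these rates need not hold there. Figures were drawn with matplotlib 3.10.9.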

Additional observations from a re-analysis of the deposited data

How the results depend on the processing

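Under all 15 alternatives to the probe set test, every tested Fc receptor probe set kept the direction of its change. Both Ms4a2 probe sets, Fcer1g and the other 3 Fcgr2b probe sets passed in each of them. Fcer1a did not pass with the fluidics run as a block (2.21, limma adjusted p = 0.0794) or without wild-type replicates 2 or 3, with changes of 1.63 to 2.91 when each array was left out in turn. The Fcgr2b probe set 1435476_a_at gave -0.87 to -0.61 and was lost without wild-type replicate 2. Fcgr3 gave 0.12 to 1.41 and passed without leukemia replicate 3 and with the run as a block (2.10). With that block, Fcgr3 minus Fcgr2b was 2.84 (2.835 before rounding) and Fcgr3 minus Fcer1g 6.55. Ms4a2 minus Fcer1g was 6.75 (6.755) with log2(value + 16) and 8.15 with the mean of a gene's probe sets. With the other Ms4a2 probe set, an alternative chosen after seeing the data, Ms4a2 minus Fcer1g was 9.03 and Fcer1a minus Ms4a2 -2.25 (-2.245). With the brighter one Fcer1a minus Ms4a2 ran from -1.08 to 0.18 over the arrays left out, turning positive without leukemia replicate 3. Changed probe sets numbered 6946 of 18098, or 4393 to 8105 with 1 array left out, and changed genes 4089, or 2647 to 4716. The fewest came without wild-type replicate 3 in both cases, and changed probe sets were 4404 without wild-type replicate 2. Fc receptor calls numbered 8, or 6 to 9 with 1 array left out. With the replicate block 5823 probe sets changed, Fc receptor calls were 8, falls among the transcription factors were 3 in place of 5, and Fcgr3 had an adjusted p of 0.278 (limma). Same-numbered samples deviated with correlations of -0.0935, 0.0423 and 0.0142, so the numbers were not taken as pairs. Where a call was lost the cause was not tested. Dim signal limits Fcgr1 (limma adjusted p = 0.883 without the filter) and the size of the fall of Fcer1g and of other changes to or from dim values.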

Other observations

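Leukemia replicate 2 held the highest leukemia value of Fcer1a, of both probe sets of Ms4a2, of Fcer1g and of all 4 probe sets of Fcgr2b. The same held for Tyrobp, Syk, Lat2, Plcg2, Lcp2 and Gab2, genes picked after their values were seen. Replicate 2 also held the highest leukemia value for 9 of the 12 named mast cell and basophil markers, replicate 3 for the other 3 and replicate 1 for 0. Over all 9715 tested genes the highest leukemia value fell on replicate 2 in 27.4%, but only 8 of the 12 markers were tested. The 9 include Tpsb2, Mcpt8 and Hpgds, which were dim on every leukemia array. Mast cell genes singled out after their values were seen show the spread. Cma1, a chymase of mast cells, was at 9.20, 11.66 and 8.92 log2 in leukemia replicates 1, 2 and 3, against 6.35, 5.13 and 6.02 log2 in wild-type. Cpa3, the mast cell carboxypeptidase, was at 10.94, 12.30 and 9.75 log2 in leukemia, against 10.90, 10.76 and 10.81 log2 in wild-type. Mcpt4, another chymase, was at 4.57, 7.32 and 4.56 log2 in leukemia, against 4.699, 4.603 and 4.292 log2 in wild-type, so it stood above wild-type on 1 leukemia array. Tpsab1 of the same list was instead lowest on replicate 2, at 6.90, 4.49 and 7.47 log2 in leukemia, against 3.39, 3.66 and 3.58 log2 in wild-type. Hdc was highest on replicate 3, at 11.63, 12.42 and 12.43 log2 in leukemia. With 1 array for each leukemia sample, differences between mice and differences between arrays cannot be told apart.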
